A study of Mus musculus with 2 samples.

Results

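The 10 genes described here carry the somatostatin and urocortin signals between the endocrine cells of the pancreatic islet: the ligands Sst and Ucn3, the somatostatin receptors Sstr1, Sstr2, Sstr3 and Sstr5, the corticotropin-releasing factor (CRF) receptors Crhr1 and Crhr2, and the ghrelin and leptin receptors Ghsr and Lepr. They were chosen by symbol, not by their values, though with earlier results of these data known. All 10 were among the 22383 features of the count matrices. Single-cell RNA sequencing of islets from mice aged 5 weeks compared littermates without Cre, labelled wildtype and called control here, with mice labelled TBL/RβKO, in which Cre recombinase inserted at Ins1 was to delete loxP-flanked Tbl1x and Tbl1xr1 in insulin-producing β-cells, all on a C57BL/6N background. Each group gave 1 library, made from 150 islets pooled from 4 mice and kept overnight at 37 °C, so the 2 libraries have no replicates. No test of the groups was possible, and every interval below is a 95% interval that covers counting error only.

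Somatostatin is the peptide hormone of islet δ-cells. It acts over short distances on α- and β-cells through G protein-coupled receptors that lower cAMP and restrain hormone release. Urocortin 3 is released together with insulin by mature mouse β-cells and acts on δ-cells through the CRF receptor CRHR2, which raises somatostatin release, so that Ucn3 and Sst form a feedback loop between the 2 cell types. Ghrelin reaches the δ-cell through GHSR.

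Regulatory sequence is shown for both ligands, which had the most UMIs of the members, and for the receptor whose window shares a motif with that of Sst. On GRCm39, the build named for the counts, the Sst gene spans chr16:23707321-23711733 and Ucn3 chr13:3990688-3995349, both on the minus strand (GENCODE annotation). Shown are the 250 bases upstream of the annotated start of Sst, Ucn3 and Sstr2, read 5′ to 3′ on the strand of the gene (RefSeq, GRCm38.p6; 8 of the 10 members had an entry). The window of Sst lies on the minus strand at chr16:23890845-23891094, that of Ucn3 on the minus strand at chr13:3945350-3945599 and that of Sstr2 on the plus strand at chr11:113619077-113619326. Capitals mark TGACGTCA, the palindromic cAMP response element, and CATCTG, an E-box searched on both strands and printed as its reverse complement CAGATG in Ucn3.
Sst: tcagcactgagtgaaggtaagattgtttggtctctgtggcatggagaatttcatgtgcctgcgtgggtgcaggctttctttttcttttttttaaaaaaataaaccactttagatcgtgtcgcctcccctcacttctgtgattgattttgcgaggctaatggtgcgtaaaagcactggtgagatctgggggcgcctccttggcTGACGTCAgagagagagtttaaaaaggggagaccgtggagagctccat
Ucn3: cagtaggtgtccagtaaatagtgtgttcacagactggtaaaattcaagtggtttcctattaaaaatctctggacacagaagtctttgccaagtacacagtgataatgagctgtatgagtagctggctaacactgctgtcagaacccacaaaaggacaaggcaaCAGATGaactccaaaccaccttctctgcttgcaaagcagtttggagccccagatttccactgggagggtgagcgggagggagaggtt
Sstr2: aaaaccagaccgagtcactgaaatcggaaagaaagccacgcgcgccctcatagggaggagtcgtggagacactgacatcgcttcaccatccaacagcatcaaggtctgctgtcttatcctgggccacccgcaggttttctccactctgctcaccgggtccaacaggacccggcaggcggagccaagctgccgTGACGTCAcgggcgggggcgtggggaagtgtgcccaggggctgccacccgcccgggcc
TGACGTCA ended 41 bases before the start of Sst and 51 bases before that of Sstr2, and stood in none of the windows of the other 6 members with an entry. Of 32851 mouse promoter windows of this length, 508 (1.55%) held it. CATCTG ended 82 bases before the start of Ucn3 on the minus strand of the gene and was held by 14.4% of windows. Also searched was TAATTA, the core of many homeodomain sites, which was held by 4.84% of windows and by none of the members.

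UMIs (molecular tags that count captured transcripts) were analysed in barcodes with more than 2500 detected genes and under 10% mitochondrial UMIs, which left 4747 of 7067 control barcodes and 4179 of 5833 barcodes of the library labelled TBL/RβKO. Their median depth was 40626 and 27425 UMIs, and 14 barcode sequences stood in both libraries. A barcode was placed in the class of its most abundant hormone (Ins1 and Ins2 together, Gcg, Sst or Ppy) where this reached 100 UMIs per 10000. The insulin, Gcg, Sst and Ppy classes held 2877, 1284, 223 and 259 control barcodes against 1338, 1546, 374 and 495, with 104 and 426 in no class. The targeted genes went against the label: Tbl1x had 96.9 CPM (UMIs per 1000000 UMIs of the same barcodes) in the control insulin class and 351 in that of the library labelled TBL/RβKO, and Tbl1xr1 20.0 and 129. A count for a whole gene cannot tell a transcript with the deletion from one without it, so the group is named by its label throughout. Where a member is compared between the libraries, its log2 ratio (TBL/RβKO over control) is taken relative to the median gene of the class, because the summed share of hormones and mitochondrial genes differed (58.4% of UMIs in the control insulin class and 43.1% in the other). That median was shifted by 0.31 in the insulin class, 0.10 in the Gcg class, 0.02 in the Sst class and 0.25 in the Ppy class.

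**Figure D1:**
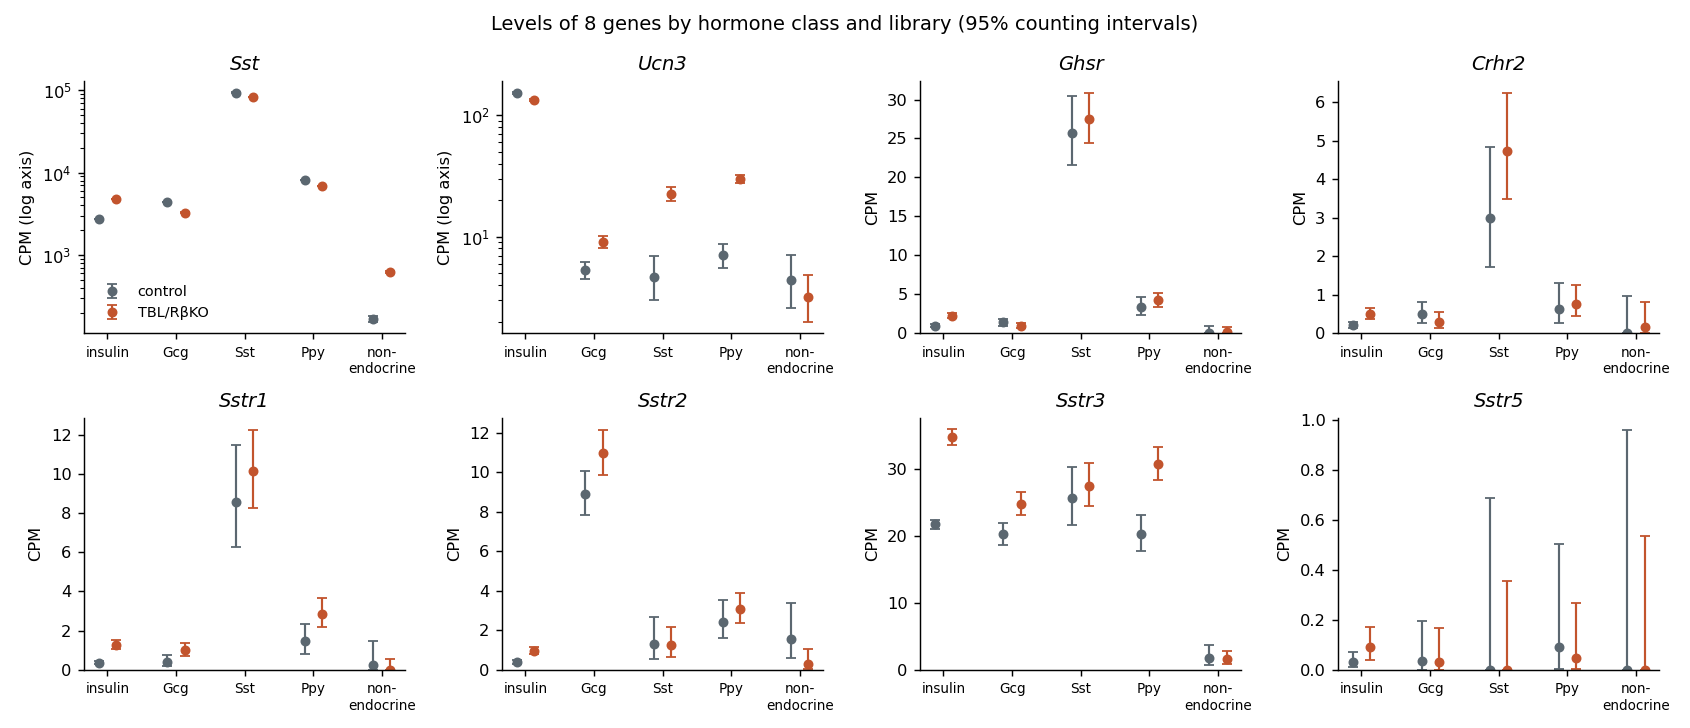
CPM of 8 members (vertical axes, log axes for Sst and Ucn3) in each hormone class and in non-endocrine barcodes (horizontal axes), with 1 point per library (grey, control; orange, labelled TBL/RβKO) and 95% counting intervals. Ghsr, Crhr2 and Sstr1 were highest in the Sst class, Sstr2 in the Gcg class and Ucn3 in the insulin class of both libraries, whereas Sstr3 lay between 20.3 and 34.8 in all 4 classes.

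Sst defined a class that took a larger share of barcodes in the library labelled TBL/RβKO. The Sst class held 223 of 4643 classed control barcodes (4.80%, exact binomial interval 4.21 to 5.46) and 374 of 3753 in the other library (9.97%, 9.03 to 11.0), a difference of 5.16 percentage points (4.04 to 6.32). The insulin class held 62.0% and 35.7% of classed barcodes, so the share of each other class rests partly on the insulin class. More cells of 1 kind and fewer of another cannot be told apart from such shares. Among barcodes with fewer than 6000 genes, the limit used in the study, the Sst class took 6.17% and 12.5%. Among barcodes with 1 hormone only it took 1.2% and 5.93%, from 37 and 124 barcodes. That filter took out unequal parts, as 44.8% of the control Sst class and 9.36% of the other had 100 or more insulin UMIs per 10000. With a second hormone left out only at 500 per 10000, the shares were 4.44% and 9.34%.

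The Sst class carried other markers of δ-cells in both libraries. Rbp4, which encodes a retinol carrier, had 5281 and 3804 CPM there, against 273 and 426 in the insulin class. Hhex, the transcription factor of δ-cells, had 209 and 159, against 7.19 and 12.4. Ptprz1, a receptor phosphatase, had 276 and 302, against 10.5 and 24.2. The calcium-sensing receptor Casr did not set the class apart: it had 80.6 and 72.1 CPM there, 65.2 and 75.3 in the Gcg class, 55.0 and 81.1 in the Ppy class and 29.8 and 57.8 in the insulin class. Markers of β-cells without Ins1, Ins2 and Iapp summed to 190 and 86.6 CPM in the Sst class and to 2204 and 897 in the insulin class.

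Within the Sst class, where Sst itself set membership and its level is a description, the amount of Sst per barcode was close in the libraries. It ran from 155 to 2595 UMIs per 10000 with a median of 939 (quartiles 665 and 1227) in control, and from 107 to 2053 with a median of 899 (608 and 1216) in the other. As a sum, Sst made up 93602 and 82687 CPM, a relative log2 ratio of -0.19. The quartiles of the barcodes overlapped over most of their range, and the ratio was -0.03 under 6000 genes. Ppy stood beside Sst in many of these barcodes: 144 of 223 (64.6%) and 234 of 374 (62.6%) had 100 or more UMIs per 10000 of it. Sst was 89589 CPM with Ppy and 102242 without it in control, and 80011 and 87806 in the other library, so that the barcodes with Ppy had less Sst in both. Insulin at that level stood in 44.8% of the control Sst class and 9.36% of the other. Non-endocrine barcodes, defined by immune, stromal and endothelial genes, had a median of 81.0 insulin UMIs per 10000 in control and 13.9 in the other library, and 36.1% and 1.95% of them were themselves at 100 or more.

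**Figure D2:**
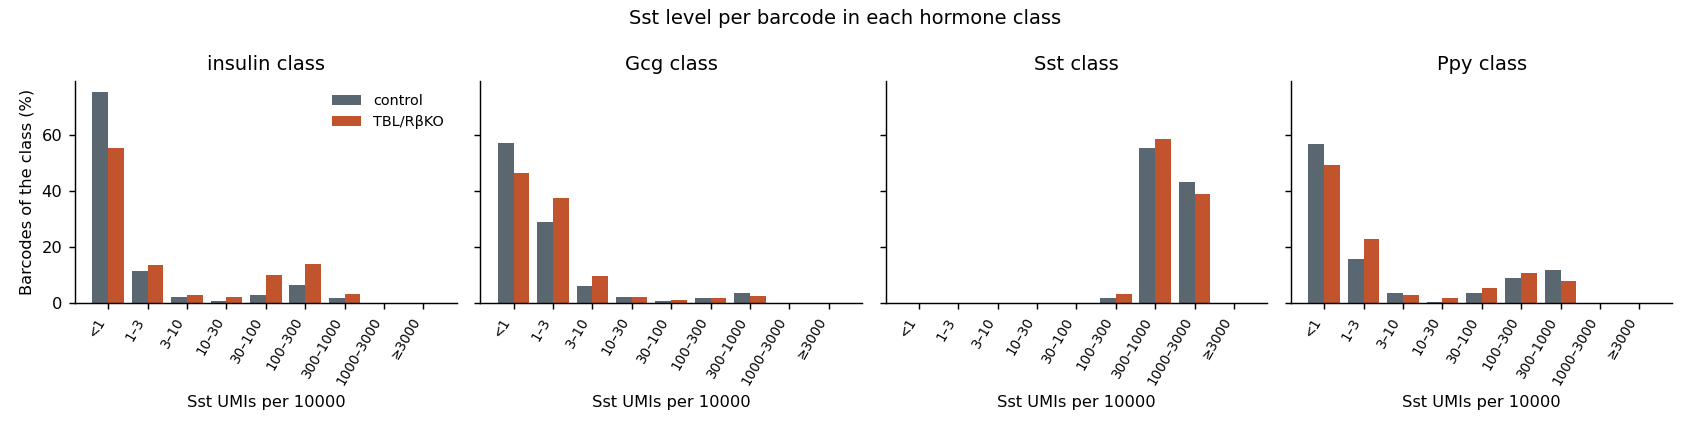
Share of the barcodes of each hormone class (vertical axis, percent) by the Sst UMIs per 10000 of the barcode (horizontal axis, unequal steps), for control (grey) and the library labelled TBL/RβKO (orange). In the insulin class 75.4% and 55.2% of barcodes had under 1 Sst UMI per 10000, and a second, smaller group had 30 to 1000.

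Outside the Sst class, Sst was found in 2 kinds of barcode. Over the insulin class Sst summed to 2717 CPM (control) and 4815 (labelled TBL/RβKO), a relative log2 ratio of 0.52. Yet the median barcode had only 0.52 and 0.84 Sst UMIs per 10000, near the 0.57 and 0.60 of non-endocrine barcodes (155 and 257 barcodes, median depth 21691 and 20638 UMIs). The sum came mostly from a minority with 100 or more Sst UMIs per 10000: 230 of 2877 control barcodes (7.99%) held 426743 of 494876 Sst UMIs, and 224 of 1338 (16.7%) held 390029 of 486206. These barcodes were deep, with a median of 74410 and 78692 UMIs against 51926 and 64983 in the rest. Whether each held 1 cell with both hormones or 2 cells cannot be told apart here. In the Gcg and Ppy classes Sst was lower in the library labelled TBL/RβKO, at 4377 and 3276 CPM in the Gcg class (relative log2 ratio -0.52) and at 8194 and 6877 in the Ppy class (-0.50). Of the barcodes of the Gcg class 5.37% and 3.95% had 100 or more Sst UMIs per 10000, and of the Ppy class 20.5% and 18.4%. With barcodes of a second hormone left out, the ratio was 0.16 in the Gcg class and -1.65 in the Ppy class, where Sst had 538 and 197 CPM. With the limit for a second hormone at 500 in place of 100 UMIs per 10000, the ratios were -0.47 and -0.16.

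The direction for Sst in the insulin class depended on the level of insulin. Barcodes were binned by Ins1 and Ins2 UMIs per 10000, and levels were taken as CPM over the UMIs other than hormones and mitochondrial genes. From 1000 to 3000, Sst was 32256 in control and 10581 in the other library, from 3000 to 5000 it was 7900 and 3934, and at 5000 or more it was 1038 and 414. Relative to the median gene, these were log2 ratios of -1.41, -0.81 and -1.14, all opposite to that of the whole class. From 100 to 1000, Sst was 2839 and 12350 (2.15), but 54 of the 163 control barcodes of that bin were non-endocrine. Of the 152 control barcodes from 1000 to 3000, 59.2% had 100 or more Sst UMIs per 10000, against 23.0% of 574 in the other library. The bins were unequally filled: 5.28% of the control insulin class and 42.9% of the other lay between 1000 and 3000, and 53.2% and 10.5% at 5000 or more.

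Ucn3 was highest in the insulin class of both libraries. It had 151.8 CPM in the control insulin class (150.0 to 153.6) and 134 (132 to 136) in the other, from 27645 and 13546 UMIs, a relative log2 ratio of -0.49 (-0.52 to -0.46). The share of barcodes with a Ucn3 UMI was 90.8% and 79.3% at median depths of 53346 and 67897 UMIs, against 9.68% and 4.67% of non-endocrine barcodes. Thinned to 5000 UMIs, the share was 46.6% and 37.2%, against 3.87% and 0 of 257 non-endocrine barcodes, which allows up to 1.17%. With hormones and mitochondrial genes left out before thinning, it was 72.8% and 51.7%. Per 10000 UMIs, the median barcode had 1.37 (quartiles 0.77 and 2.02) and 0.89 (0.21 and 1.83), with a highest value of 8.39 and 22.7. Ucn3 thus had a lower median and a wider range in the library labelled TBL/RβKO. In the insulin class 4.04% of 13944 genes tested were more than 2-fold lower relative to the median, and Ucn3 was not among them.

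Within bins of insulin level, the summed level of Ucn3 was not lower in the library labelled TBL/RβKO. A smaller share of the barcodes of that library at 1000 or more insulin UMIs per 10000 had a Ucn3 UMI. As CPM over the UMIs other than hormones and mitochondrial genes, Ucn3 was higher at higher insulin in both libraries, going from 124 (115 to 132) at 1000 to 3000 insulin UMIs per 10000 to 468 (461 to 475) at 5000 or more in control, and from 195 (190 to 200.3) to 479 (457 to 501) in the other. Between 3000 and 5000 it was 310 (304 to 317) and 332 (323 to 341). Relative to the median gene of each bin, the log2 ratio was 0.86 from 1000 to 3000, 0.30 from 3000 to 5000 and 0.21 (0.15 to 0.28) at 5000 or more, each opposite in sign to the ratio of the whole class. In the top bin the intervals of the levels themselves overlapped. The share of barcodes with a Ucn3 UMI was 82.9% and 77.0% from 1000 to 3000, 94.4% and 90.8% from 3000 to 5000, and 97.7% and 91.5% at 5000 or more, at median depths of 55376 and 71791 UMIs in the last. The median barcode, per 10000 UMIs other than hormones and mitochondrial genes, had 0.88 and 1.14, 2.93 and 2.73, and 4.41 and 4.23 in these bins. These medians were not taken relative to the median gene of the bin. Compared in that way, the sum was higher and the median barcode lower in the library labelled TBL/RβKO from 3000 to 5000. At 5000 or more the median barcode was lower, and the intervals of the sums overlapped. From 100 to 1000 the levels were 18.8 and 114 (2.63), in a bin with a median depth of 9271 UMIs in control and 54089 in the other and with the 54 non-endocrine control barcodes. Insulin and Ucn3 were read from the same barcodes, and the bins were not independent of the groups. The bins also differed in barcodes with 100 or more Sst UMIs per 10000. These made up 59.2% of 152 control barcodes and 23.0% of 574 others from 1000 to 3000, and 11.9% and 5.79% from 3000 to 5000. The part of mixed barcodes in the ratios by bin was not tested.

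**Figure D3:**
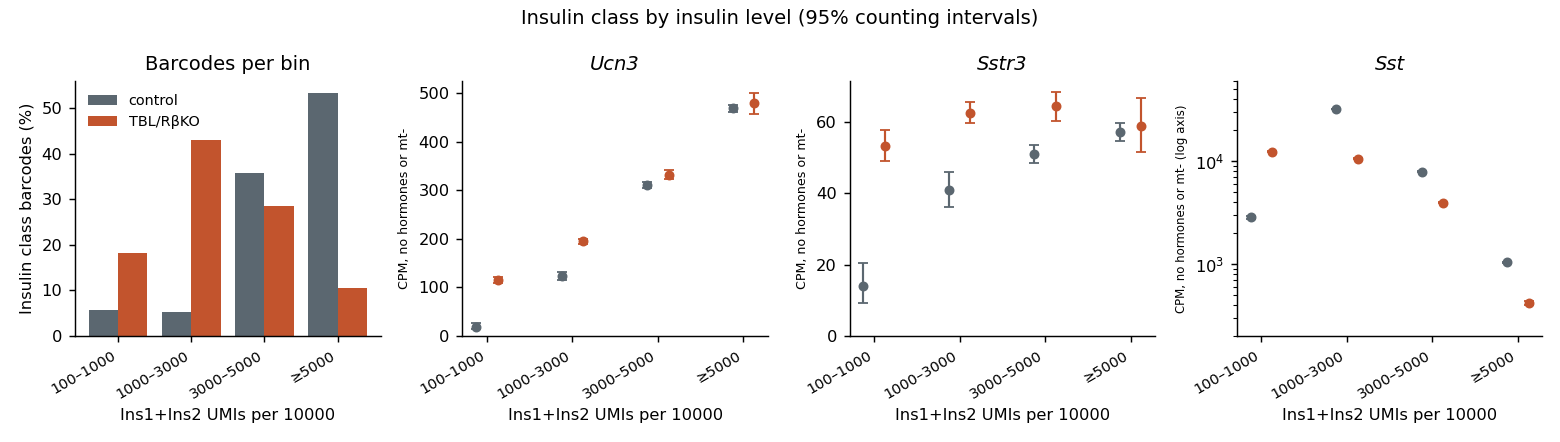
Insulin class split by Ins1 and Ins2 UMIs per 10000 (horizontal axes), for control (grey) and the library labelled TBL/RβKO (orange). The bars give the percent of the class in each bin, and the points give Ucn3, Sstr3 and Sst as CPM over UMIs other than hormones and mitochondrial genes with 95% counting intervals (log axis for Sst). Ucn3 was at 468 and 479 in the top bin, which held 53.2% and 10.5% of barcodes.

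Ucn3 had more UMIs outside the insulin class in the library labelled TBL/RβKO, in few barcodes. In the Sst class it had 25 and 234 UMIs, 4.66 and 22.5 CPM, a relative log2 ratio of 2.26 (1.66 to 2.91). In the Ppy class it had 78 and 623 UMIs, 7.03 and 29.7 CPM, a ratio of 1.83 (1.49 to 2.19). These were the only members past 2-fold in those classes, where 1.33% of 11142 and 5.68% of 11760 genes tested were that much higher and 0.682% and 2.05% that much lower. The share of barcodes with a Ucn3 UMI was 11.2% and 9.09% in the Sst class and 19.7% and 22.2% in the Ppy class, against 9.68% and 4.67% of non-endocrine barcodes. Of the 234 UMIs in the Sst class 54.7% lay in 3 barcodes, and of the 623 in the Ppy class 36.9% lay in 4. The 35 barcodes of the Sst class with 100 or more insulin UMIs per 10000 held 191 of the 234, at 109.6 CPM against 134 in the insulin class of that library. The other 339 held 43, at 4.98 CPM. In the Ppy class 156 barcodes with insulin held 461 of 623 UMIs (49.9 CPM), and the 339 without held 162 (13.8 CPM). Among barcodes with fewer than 6000 genes, the ratio in the Sst class was -0.56, from 21 and 22 UMIs, while that in the Ppy class was 1.53. Without a second hormone at 100 or more UMIs per 10000, the ratio in the Ppy class was 2.02 (1.35 to 2.75), from 21 and 140 UMIs. It was 2.31 (1.85 to 2.81) with that limit at 500.

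In the Gcg class Ucn3 had 152 and 306 UMIs (5.28 and 9.12 CPM, relative log2 ratio 0.69), of which 74.8% in the library labelled TBL/RβKO lay in 15 barcodes. The share of barcodes with a UMI went the other way, at 11.1% in control and 4.72% in the other. With barcodes of a second hormone at 100 or more UMIs per 10000 left out, Ucn3 had 4.33 and 2.03 CPM (-1.21). That filter took out 59.6% of the control barcodes of the class and 20.3% of the others. Insulin reached this level in 47.0% and 5.82% of the class. With the limit at 500, Ucn3 had 5.22 and 8.91 CPM (0.66). Under 6000 genes the ratio was -2.14. Non-endocrine barcodes had 17 and 22 Ucn3 UMIs, at 4.43 and 3.20 CPM.

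Ghsr, the receptor of ghrelin, was highest in the Sst class of both libraries. It had 138 and 285 UMIs there, 25.7 (21.6 to 30.4) and 27.5 (24.4 to 30.8) CPM, a relative log2 ratio of 0.08 (-0.22 to 0.38). A Ghsr UMI was found in 42.2% and 47.1% of barcodes at median depths of 21040 and 21870 UMIs, against 0 of 155 non-endocrine barcodes, which allows up to 1.94%, and 1 of 257. In the Ppy class it had 3.33 and 4.20 CPM, and in the Gcg class 1.35 and 0.89. Insulin class barcodes had 174 and 225 UMIs, 0.96 and 2.23 CPM, a ratio of 0.91 (0.62 to 1.21). That signal followed Sst: 141 of the 174 and 167 of the 225 UMIs lay in the 230 and 224 barcodes with 100 or more Sst UMIs per 10000, at 7.59 (6.38 to 8.95) and 8.80 (7.52 to 10.2) CPM. The remaining barcodes had 0.20 and 0.71. The share of insulin class barcodes with Sst at that level was 7.99% and 16.7%.

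Crhr2, through which urocortin 3 acts on δ-cells, was detected at low levels. It had 16 and 49 UMIs in the Sst class, 2.98 (1.71 to 4.85) and 4.72 (3.49 to 6.24) CPM, a relative log2 ratio of 0.65 (-0.19 to 1.56), and a UMI in 5.83% and 11.0% of barcodes. The interval of the ratio included 0, while that of the difference in shares, 5.13 percentage points (0.35 to 9.43), did not. Thinned to 5000 UMIs, the shares were 2.24% and 2.94%, and 3.6% and 2.14% with hormones and mitochondrial genes left out first. Non-endocrine barcodes had 0 of 155, which allows up to 1.94%, and 1 of 257. Crhr2 had 37 and 50 UMIs in the insulin class (0.20 and 0.50 CPM, 0.98), of which 22 and 30 lay in the barcodes with Sst. Crhr1, the other CRF receptor, had 36 and 9 UMIs in all kept barcodes, of which 33 and 6 lay in the insulin class (0.18 and 0.06 CPM), a relative log2 ratio of -1.92 (-3.46 to -0.64). It fell short of the 50 UMIs set for a comparison, and it had 1 and 0 UMIs in the Sst class.

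**Figure D4:**
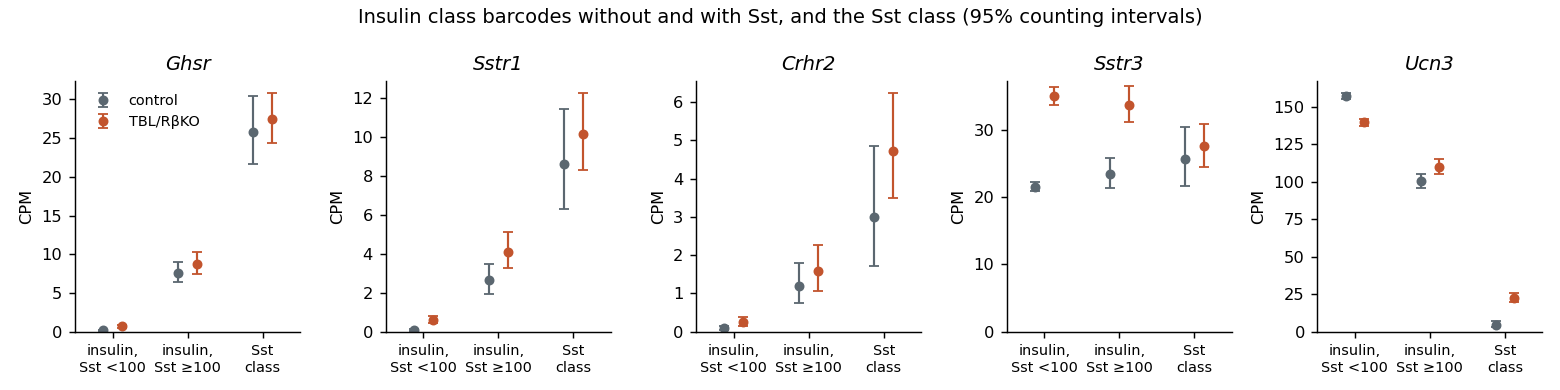
CPM (vertical axes) of 5 members in insulin class barcodes with under 100 and with 100 or more Sst UMIs per 10000, and in the Sst class (horizontal axes), with 95% counting intervals. Ghsr, Sstr1 and Crhr2 were at 7.59, 2.64 and 1.18 in the control insulin barcodes with Sst, between the insulin barcodes without it and the Sst class, whereas Sstr3 differed more between libraries (grey, control; orange, labelled TBL/RβKO) than between the insulin barcodes with and without Sst.

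The somatostatin receptors were divided among the classes. Sstr1 was highest in the Sst class, with 46 and 105 UMIs, 8.58 (6.28 to 11.4) and 10.1 (8.27 to 12.2) CPM, a ratio of 0.22 (-0.29 to 0.75). The insulin class had 64 and 127 Sstr1 UMIs, 0.35 and 1.26 CPM, a relative log2 ratio of 1.53 (1.09 to 1.99). Sstr1 and Sstr2 were the only 2 of 7 members tested in that class that were past 2-fold higher, where 7.96% of 13944 genes were. Of the Sstr1 UMIs in the insulin class, 49 of 64 and 78 of 127 lay in the barcodes with Sst, and in the rest it had 0.09 and 0.60 CPM. Most Sstr1 UMIs of the class thus lay in barcodes with Sst in both libraries, as for Ghsr. With barcodes of a second hormone left out, the ratio was 2.46 (0.96 to 4.06), from 7 and 11 UMIs.

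Sstr2, the receptor through which somatostatin restrains glucagon release, was highest in the Gcg class. It had 256 and 368 UMIs there, 8.89 (7.84 to 10.1) and 11.0 (9.88 to 12.1) CPM, a ratio of 0.20 (-0.03 to 0.44), and a UMI in 15.6% and 16.4% of barcodes against 3.23% and 0.78% of non-endocrine barcodes. No member was past 2-fold in the Gcg class in either direction, where 1.88% of 12632 genes were higher and 0.926% lower. In the Sst class Sstr2 had 7 and 13 UMIs, and in the Ppy class 27 and 64. The insulin class had 68 and 97 Sstr2 UMIs, 0.37 and 0.96 CPM, a relative log2 ratio of 1.06 (0.59 to 1.52). Here the UMIs followed Gcg: 39 of 68 and 62 of 97 lay in the 252 and 243 barcodes with 100 or more Gcg UMIs per 10000, which made up 8.76% and 18.2% of the class. With barcodes of a second hormone left out, the ratio of Sstr2 was 0.29 (-1.19 to 1.59), from 20 and 7 UMIs. These were fewer UMIs than the number set for a comparison, so this value does not show whether the ratio fell. When a second hormone was left out only at 500 UMIs per 10000, the ratio was 1.34 (0.78 to 1.92), from 44 and 71 UMIs.

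Sstr3, a receptor known from primary cilia, was found in all 4 classes, and it was the receptor with most UMIs. Its levels by class depended on the scale in control. As CPM of all UMIs they lay between 20.3 and 25.7 there, with the Sst class highest. Over UMIs other than hormones and mitochondrial genes the control insulin class was highest. In the library labelled TBL/RβKO the insulin class was highest on both scales. Over UMIs other than hormones and mitochondrial genes, Sstr3 had 52.3 and 61.1 in the insulin class and 27.6 and 31.9 in the Gcg class. The Sst class had 34.7 and 36.4, and the Ppy class 38.8 and 47.2. The insulin class had 3968 and 3513 Sstr3 UMIs, 21.8 (21.1 to 22.5) and 34.8 (33.6 to 36.0) CPM, a relative log2 ratio of 0.37 (0.30 to 0.43). A UMI was found in 65.4% and 80.5% of barcodes, and in 9.84% and 17.5% once barcodes were thinned to 5000 UMIs, against 0 and 0.78% of non-endocrine barcodes. With hormones and mitochondrial genes left out before thinning, the shares were 23.3% and 26.2%, a smaller gap. By insulin bin, Sstr3 was 40.9 and 62.7 as CPM over UMIs other than hormones and mitochondrial genes from 1000 to 3000 (0.81), 51.1 and 64.4 from 3000 to 5000 (0.53), and 57.2 (54.8 to 59.7) and 58.8 (51.5 to 66.8) at 5000 or more (0.22). Sstr3 was thus nearly even over the bins in the library labelled TBL/RβKO and lower at low insulin in control. The part of mixed barcodes, unequal between the libraries in these bins, was not tested. It had 25.7 and 27.6 CPM in the Sst class (0.08, -0.22 to 0.39), 20.3 and 24.8 in the Gcg class (0.19, 0.03 to 0.34) and 20.3 and 30.8 in the Ppy class (0.36, 0.14 to 0.58). In the Ppy class the ratio was -0.11 under 6000 genes and -0.06 without a second hormone.

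Sstr5 and Lepr, the leptin receptor, were close to the limit of detection. Sstr5 had 8 UMIs in 8 control barcodes and 11 in 10 barcodes of the other library, of which 6 and 9 lay in the insulin class. In the Sst class it had 0 UMIs in 223 and 374 barcodes, which allows a share of up to 1.35% and 0.80%. Lepr had 16 and 32 UMIs in all kept barcodes and 0 and 2 in the Sst class. Over all kept barcodes Lepr was at 0.069 CPM (0.040 to 0.113) and 0.18 (0.12 to 0.26), intervals that did not overlap. The kept barcodes were divided unequally among the classes in the libraries, and within each hormone class the intervals of Lepr overlapped. In the insulin class it was at 0.049 and 0.11 CPM. Sstr5 was at 0.035 (0.015 to 0.068) and 0.063 (0.031 to 0.112) over all kept barcodes, intervals that overlapped. In the insulin class 0.21% and 0.60% of barcodes had a Sstr5 UMI, a difference of 0.39 percentage points (0.0057 to 0.98) from 6 and 8 barcodes. No class held the 50 UMIs set for a comparison of either gene.

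**Figure D5:**
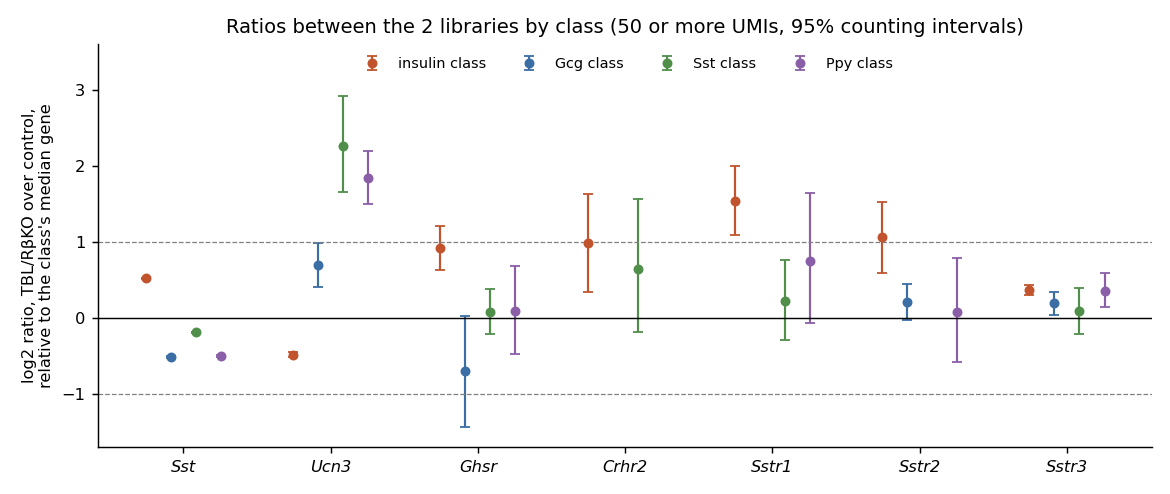
Log2 ratio of the library labelled TBL/RβKO over control, relative to the median gene of the class (vertical axis; dashed lines at 2-fold), for 7 members (horizontal axis) in the classes where they had 50 or more UMIs, with 95% counting intervals. Ucn3 lay at -0.49 in the insulin class and above 1 in the Sst and Ppy classes, and the Sst class intervals of Ghsr, Crhr2, Sstr1 and Sstr3 included 0.

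In the Sst class the receptors were read together in the same barcodes. Of Ghsr, Sstr1, Sstr3 and Crhr2, none had a UMI in 23.8% and 23.5% of barcodes, 1 had a UMI in 48.0% and 38.8%, and 2 in 22.9% and 28.1%. Ghsr was found in 42.2% of control barcodes with Sstr3 and 42.1% of those without it, and in 55.2% and 40.7% in the other library. Barcodes with more UMIs have more chances of both.

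The genes around these members were described by lists chosen for their roles, with earlier results of these data known. Of 14 δ-cell identity genes, 13 had enough UMIs in the Sst class and none was past 2-fold in either direction, with a median relative log2 ratio of -0.15 against 0 over all genes by construction. Beside that count, 1.33% of all genes were past 2-fold higher and 0.682% lower in that class. Within the insulin class, where 7.96% of all genes were past 2-fold higher and 4.04% lower, 3 of the 14 were past 2-fold higher, namely the endocrine progenitor factor Neurog3 (3.66 and 23.5 CPM, 2.37), Fxyd6, a sodium pump regulator (84.3 and 235, 1.17), and Nrsn1 (2.04 and 6.49, 1.36), and Mrap2, an accessory protein of melanocortin and ghrelin receptors, was lower (1.04 and 0.59, -1.12). The median of the list there was 0.56.

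Among 20 genes of the somatostatin receptor pathway, 15 were tested in the Sst class and 1 was past 2-fold. Rgs4, which shortens the signal of inhibitory G proteins, had 50.6 and 143.5 CPM (1.49). Of 16 tested in the insulin class, Rgs4 had 15.5 and 601 (4.97), the highest ratio of any listed gene there, and Rgs2 was lower at 14.0 and 8.37 (-1.05). In the library labelled TBL/RβKO, 35 of the 374 Sst class barcodes had 100 or more insulin UMIs per 10000. Rgs4 in the Sst class was not split by insulin, and the part of these barcodes in its ratio was not tested. The list medians were 0.05 and 0.07. Of all genes tested, 1.33% were past 2-fold higher and 0.682% lower in the Sst class, and 7.96% and 4.04% in the insulin class. Beside the same shares, of 18 genes of the CRF family and the cAMP pathway none of 13 was past 2-fold in the Sst class and none of 14 in the insulin class, with medians of 0.01 and 0.12. The peptides Ucn and Ucn2 had 1 to 3 UMIs in each insulin class, so Ucn3 was the main urocortin transcript read.

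Of 18 genes around ghrelin and leptin signalling, 15 were tested in the Sst class, where Socs3, an inhibitor of cytokine and leptin signals, was past 2-fold higher (15.7 and 35.3 CPM, 1.15). In the insulin class Ghrl, which encodes ghrelin, had 24 and 73 UMIs (0.13 and 0.72 CPM, 2.15) and Irs2, an insulin receptor substrate, 38.0 and 100.5 (1.09). Of 19 receptors for other islet signals found in the matrices, 13 were tested in the Sst class and 2 were higher: the GLP-1 receptor Glp1r (63.4 and 144, 1.17) and the galanin receptor Galr1 (1.87 and 5.78, 1.62). Lower in the insulin class was the purinergic receptor P2ry1 (12.1 and 4.49, -1.74). The medians of the 2 lists in the Sst class were 0.12 and 0.16. Beside these counts, 1.33% of all genes tested were past 2-fold higher and 0.682% lower in the Sst class, and 7.96% and 4.04% in the insulin class. The Sst class values of Socs3, Glp1r and Galr1 were not split by insulin either.

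The ratio of Ucn3 in the insulin class lay near the middle of those of other genes of β-cell maturity. Of 16 such genes, 6 were past 2-fold lower and none was higher, beside 4.04% and 7.96% of all genes, with a median of -0.59 against -0.49 for Ucn3. The study had already reported Mafa, Slc2a2 and Nkx6-1 as lower in β-cells from these data, so this count is a description. The zinc and glucose transporters Slc30a8 (607 and 179.7 CPM, -2.06) and Slc2a2 (316 and 55.3, -2.82), the transcription factors Mafa (463 and 85.5, -2.75) and Nkx6-1 (189 and 115, -1.02), Ppp1r1a, a phosphatase inhibitor (269.9 and 50.8, -2.72), and the oxidoreductase Ero1b (813 and 348, -1.53) were lower. In the Sst class Mafa (21.1 and 1.64, -3.70), Slc2a2 (22.0 and 3.56, -2.64), Slc30a8 (142 and 69.9, -1.04) and Ero1b (87.7 and 42.0, -1.08) were lower as well, and Glp1r, which is also in this list, was higher, beside 0.682% and 1.33% of all genes. Free insulin RNA was also lower in that library, and its part in these values was not tested.

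Some genes had profiles over the 10 sums (4 hormone classes and the barcodes of no class in each library) that were most like those of the members, by the Pearson correlation of log2(CPM + 1). The sums share libraries and mixed barcodes, so r is a description. Nearest to Sst were 1810010H24Rik (r = 0.995), Ccdc160, Dcx and Rbp4 (0.989). Nearest to Ucn3 were Hapln4 (0.977), Mnx1, Fer1l6, Prlr and B830017H08Rik (0.957). Ghsr was most like Cacna2d2 (0.997), F5 and Bmp3, Sstr3 most like Pla2g2f (0.991), Tmem184a and Fam183b, and Sstr2 most like Eef1a2 (0.988), Gnai1 and Irx1 (0.961).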

How the data were processed

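The authors made the matrices with Cell Ranger 7.1.0 and deposited raw UMI counts per gene and barcode. The genome names GRCm39 and mm39 stand in the submitters' processing notes. The study's later removal of ambient RNA, integration and cell type calls were not used here. The depth was 241434108 UMIs in the control library and 185062206 in the other, and the lowest barcode held 500 UMIs, which limits the genes with few UMIs.

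From the counts, UMIs were summed by library and hormone class and scaled to CPM (per 1000000). Exact Poisson, binomial and conditional binomial intervals (95%) were computed with scipy 1.17.1, numpy 2.4.6 and pandas 2.3.3 in Python 3.11.15, and figures were drawn with matplotlib 3.10.9. A gene was tested in a class with 50 or more UMIs over both libraries. It was called past 2-fold where its relative log2 ratio was 1 or more, or -1 or less, and its interval lay on that side of 0. This rule was tested on simulated data. No doublet was removed and no doublet caller was run. Non-endocrine barcodes had 20 or more UMIs per 10000 of immune, stromal and endothelial markers and under 1000 of hormones. Thinning drew 5000 UMIs per barcode.

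Named were the members, the targeted genes, the marker genes of δ-cells, listed genes past 2-fold in the Sst or insulin class, and the nearest genes by correlation among those with 200 or more UMIs. Some genes that this rule names are not reported here. Ucn and Ucn2 were named after their values were seen. The members and lists were chosen with earlier results of these data known. The alternatives with a second hormone at 500 per 10000, with hormones left out before thinning, and the splits by a second hormone were chosen after the data were seen.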

Additional observations from a re-analysis of the deposited data

Results flagged for a closer look

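Among the members with 50 or more UMIs in more than 1 class, the ratio between the libraries went in opposite directions for Sst and for Ucn3, with each interval on its own side of 0. For Sst, the relative log2 ratio in the insulin class was 0.52, and the ratios in the Gcg, Sst and Ppy classes were below it by differences of -1.035, -0.7123 and -1.017. For Ucn3, the ratio in the insulin class was -0.49, and the ratios in the Gcg, Sst and Ppy classes exceeded it by 1.175, 2.743 and 2.319. With 1 library per group these differences between classes were not tested. Barcodes with a second hormone moved with both: those with Sst made up 7.99% and 16.7% of the insulin class, and those with insulin held 191 of the 234 Ucn3 UMIs of the Sst class and 461 of the 623 of the Ppy class in the library labelled TBL/RβKO. Without a second hormone, the ratio of Ucn3 in the Ppy class was 2.02, from 21 and 140 UMIs. The part of doublets in these values was not tested.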

How the results depend on the processing

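No paired analysis was possible because each group had 1 library, and for the same reason no replicate could be left out. The difference in the share of the Sst class kept its direction and stayed within its interval in every alternative run, but the shares themselves did not: they were 6.17% and 12.5% under 6000 genes and 1.2% and 5.93% with 1 hormone only. Without a second hormone at 500 per 10000, they were 4.44% and 9.34%. The relative log2 ratio of Ucn3 in the insulin class (-0.49) was -0.28 under 6000 genes, -0.10 in barcodes with 1 hormone only and -0.37 as a mean over barcodes. That of Sst in the insulin class (0.52) was 1.36, 0.71 and 0.76 in these, 0.73 without a second hormone at 500 per 10000, 0.48 with a class threshold of 500 and 0.49 without non-endocrine barcodes. That of Sst in the Sst class (-0.19) was -0.030 under 6000 genes, -0.18 with 1 hormone only, -0.14 with a threshold of 500 and -0.077 as a mean over barcodes. The direction turned for Ucn3 in the Gcg class (-2.14 under 6000 genes, -1.21 with 1 hormone only, -0.63 as a mean over barcodes), Ucn3 in the Sst class (-0.56 under 6000 genes), Sst in the Gcg class (0.16 with 1 hormone only) and Sstr3 in the Ppy class (-0.11 under 6000 genes, -0.058 with 1 hormone only). With a second hormone left out only at 500 per 10000, none of these turned. Ucn3 was at 0.66 in the Gcg class and 2.09 in the Sst class, Sst at -0.47 in the Gcg class and Sstr3 at 0.34 in the Ppy class. The cause of the turns was not tested. Once thinned without hormones and mitochondrial genes, the difference in the share of barcodes turned for Crhr1 (0.045 percentage points) and Lepr (-0.070) in the insulin class and Crhr2 in the Sst class (-1.46). Under a filter of 200 UMIs, the genes past 2-fold higher and lower were 704 and 393 in place of 1110 and 563 in the insulin class, 102 and 30 in place of 237 and 117 in the Gcg class, 60 and 20 in place of 148 and 76 in the Sst class, and 423 and 104 in place of 668 and 241 in the Ppy class, from fewer genes tested.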

Other observations

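Barcodes of no hormone class, 104 control and 426 in the other library, are in none of the ratios by class above. Of these, 94 and 244 were non-endocrine and so made up part of the non-endocrine barcodes used for reference. All of them entered the values over all kept barcodes and the correlations. The barcodes of no class had 154 and 1032 Sst UMIs (49.6 and 103 CPM), 10 and 23 Ucn3 UMIs and 0 Ghsr UMIs in both, which allows a share of barcodes of up to 2.88% and 0.70%.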
